A study of Mus musculus with 6 samples.

Results

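Expression of 52 genes of DNA repair, p53 signalling and cell cycle checkpoints was compared between LKS-Slam cells of mice labelled Zeb2KO and of wild-type mice. The genes were taken by symbol, as every gene whose name marks it as a Fanconi, Xrcc, Rad, Ercc, Brca, Msh or Mlh gene, as the kinase genes Atm, Atr and Chek, or as Mdm2, Mdm4, Trp53-named, Cdkn1 and Cdkn2, cyclin G, sestrin, Zmat3 or Phlda3 genes. They were 52 of 10366 genes with a probe set of their own, and each was read from 1 probe set, that with the highest mean over the 6 arrays. Trp53 itself, Cdkn1a, Fancd2, Ercc1 and Mdm4 were not analysed here.

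LKS-Slam cells are bone marrow cells without lineage markers that carry Kit and Sca-1 and SLAM surface antigens, a population rich in hematopoietic stem cells. The Zeb2KO mice, of genotype Zeb2Δ/ΔMx1-Cre, carried floxed Zeb2 alleles and a Cre recombinase driven by the interferon-responsive Mx1 promoter, which acts in all cells that respond to interferon and not in stem cells alone. The WT mice were C57Bl/6 without these alleles. All mice received pIC, an inducer of interferon, when 6 weeks old, and marrow was collected 8 weeks after that, from animals 14 weeks old. There were 3 arrays per group from separate bone marrow samples, and the comparison asks which transcripts differ after induced loss of Zeb2, a zinc-finger repressor.

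In cells with damaged DNA the kinases ATM and ATR are activated at breaks and at stalled replication forks and pass the signal to CHK2 and CHK1. These slow the cell cycle and stabilise p53, which induces inhibitors of cyclin-dependent kinases, survival and death genes, and its own inhibitor MDM2. Breaks are mended by homologous recombination after replication or by end joining at any time, crosslinks by the Fanconi anaemia pathway, bulky lesions by nucleotide excision repair and copying errors by mismatch repair. Hematopoietic stem cells are mostly quiescent and are known to depend on this network, since inherited Fanconi anaemia leads to marrow failure.

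None of the 52 genes passed an adjusted p of 0.05 (limma over all probe sets, Benjamini-Hochberg), where 0.0137% of all 14610 probe sets did. In 38 of the 52 genes (73.1%) the mean was higher in Zeb2KO cells, against 44.6% of all probe sets. Their median log2 difference was 0.22, with differences from -0.45 for Rad54l to 1.11 for Rad9b, and the median over all probe sets was -0.089. The group means of 46 of the 52 genes differed by less than the larger SD of the 2 groups. A single gene, Rad9b, reached an unadjusted p under 0.05 on the higher side, where 5.69% of all probe sets did, and no gene did on the lower side, where 1.33% did (7.02% in either direction). That higher-side count was 6 without WT replicate 2 (11.5%, against 9.14% of all probe sets on that side in the same fit). It was 5 without Zeb2KO replicate 1 (9.62% against 8.33%). It was 2 without WT replicate 1 (3.85% against 3.57%) or WT replicate 3 (3.85% against 5%). It was 1 without Zeb2KO replicate 2 (1.92% against 2.86%) or Zeb2KO replicate 3 (1.92% against 4.1%). On the lower side no gene reached it in these fits, where 0.815% to 2.92% of all probe sets did. With weights per array 13 genes reached that p (25%, against 32.8% of all probe sets). Of these, 10 were higher (19.2% against 17.2%) and 3 lower (5.77% against 15.6%). In that fit Zeb2KO replicate 3 had a weight of 8.22 and the other arrays 0.379 to 1.89, so it rested largely on 1 Zeb2KO array. The groups did not overlap in 2 genes, Rad9b and Mdm2, both higher in Zeb2KO, against 6.9% of all probe sets, and in no gene on the lower side, against 6.26%. With all 6 arrays and no weights or covariate, the share of the 52 genes past either line was thus below that of all probe sets on both sides. At 3 arrays a group, the 95% confidence interval lay within a 2-fold change either way for 23 of the 52 genes. It reached a 2-fold higher level for 25 and a 2-fold lower level for 5, and a gene could count in both.

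**Figure D1:**
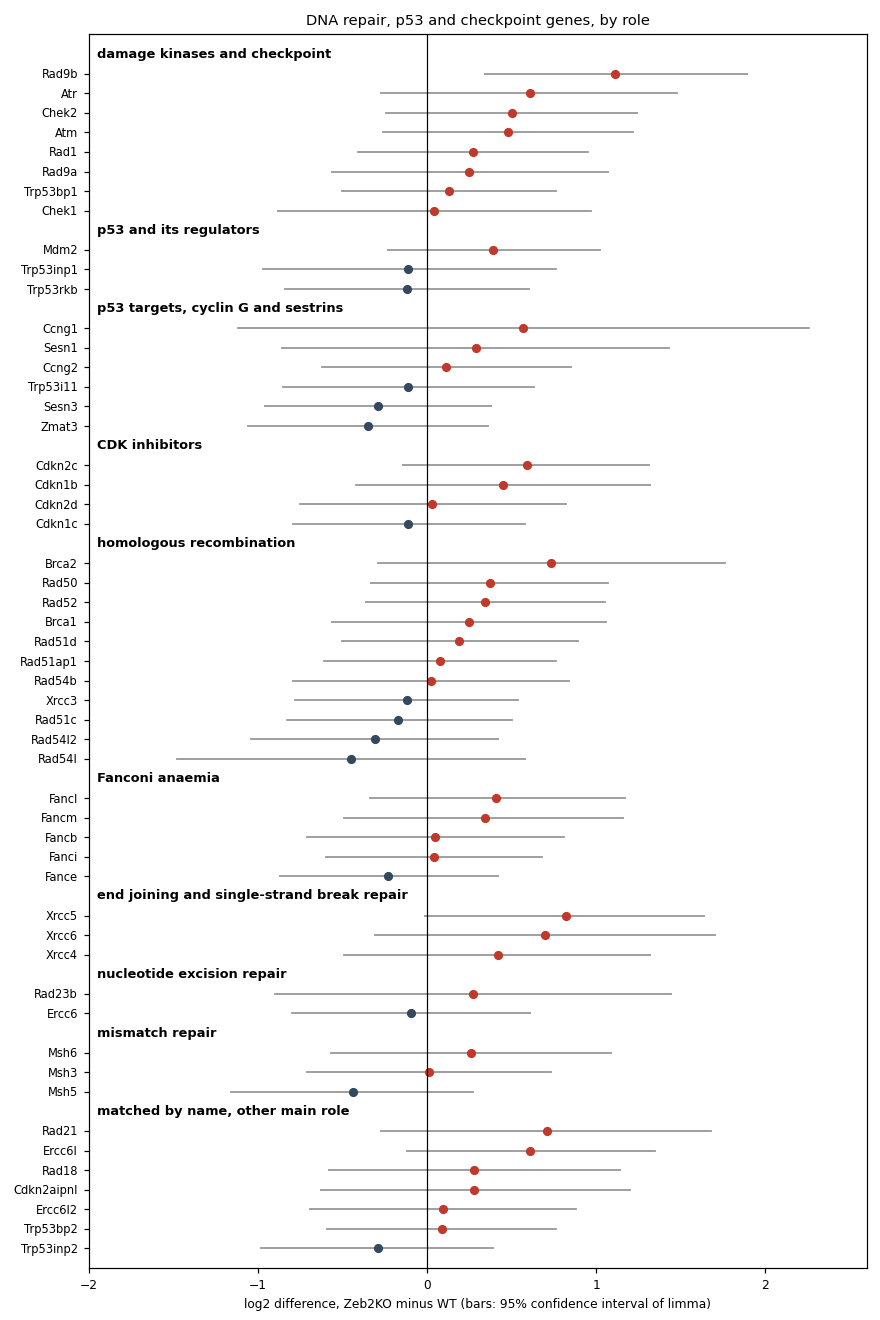
Log2 difference between Zeb2KO and WT (horizontal axis) for each of the 52 genes, grouped by role, with points for the estimate (red above 0, blue below) and bars for the 95% confidence interval of limma. The interval of Rad9b, from 0.34 to 1.89, is the 1 that does not reach 0.

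Several properties of the arrays bear on these values. Zeb2 was higher in the arrays labelled Zeb2KO, at 7.79, 9.13 and 8.96 against 6.58, 7.51 and 7.34 in WT (difference 1.48, SE 0.40, limma adjusted p = 0.581), so it does not check the label, and each direction given here rests on the labels alone. The part of the gene that was removed is not given in the sources used here, and a probe set outside it would not show the deletion. Of the gate's antigens, Kit was at 10.14 to 10.23 in Zeb2KO and at up to 10.06 in WT. Slamf1, which encodes CD150, was at 8.31, 9.01 and 8.30 in Zeb2KO and at 5.76, 8.02 and 7.94 in WT. Both were higher without overlap (differences 0.53 and 1.30, limma adjusted p = 0.673 each), with WT replicate 1 the lowest array. Cd48, an antigen low on stem cells, was at 6.79, 6.86 and 5.72 in Zeb2KO and 7.19, 7.70 and 7.55 in WT, lower without overlap (difference -1.02, limma adjusted p = 0.656). Of 16 measured genes of stem cell gate and identity, which include these, 9 were higher and 7 lower. The groups did not overlap in 5 on the higher side (31.2%, against 6.9% of all probe sets) and 3 on the lower (18.8% against 6.26%). WT replicate 1 also correlated least with the other arrays, at a mean of 0.841 against 0.886 to 0.908. Y-linked genes were raised in Zeb2KO replicate 1 and WT replicate 1, 1 array in each group. Array spread differed, with an interquartile range of log2 values from 1.59 in WT replicate 1 to 2.40 in Zeb2KO replicate 2. It was 1.83, 2.40 and 2.11 in Zeb2KO replicates 1 to 3 and 1.59, 2.03 and 1.77 in WT, wider in Zeb2KO at each number. The list means of 10 B lymphoid markers ran from 6.86 to 7.43 in Zeb2KO and from 7.57 to 8.27 in WT, all 10 markers lower in Zeb2KO, and those of 8 megakaryocyte and platelet markers from 7.67 to 8.49 and from 6.43 to 7.20, with 7 of 8 higher. The 9 monocyte and dendritic markers ran from 7.40 to 7.92 in Zeb2KO and from 7.90 to 8.26 in WT, with 8 of 9 lower. The 5 erythroid markers ran from 7.42 to 8.22 in Zeb2KO and from 7.02 to 7.14 in WT, with 5 of 5 higher, and the 7 stromal and endothelial markers from 6.34 to 6.68 and from 6.75 to 7.13, with 7 of 7 lower. Granulocyte markers (5.82 to 6.62 against 5.75 to 5.92) and T and NK markers (5.42 to 5.88 against 5.47 to 5.82) overlapped between the groups. The part of these other cell types in the values below was not tested, and in sorted bulk cells a lower share of cells that carry a transcript and less of it per cell cannot be told apart.

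The promoters of the 2 genes without overlap between groups, Rad9b and Mdm2, and of Xrcc5, which had the next smallest p after Rad9b, are given as the 250 bases upstream of the RefSeq start (assembly GRCm38.p6), written 5′ to 3′ on the gene's own strand. Capitals mark 4 kinds of letters searched on both strands. They are the Zeb-type E-box CACCTG, its core CACCT, which lies within it, an E2F-type site (TTCGCGC or TTGGCGC) and the CCAAT box. The first lies at chr5:122354206-122354455 on the minus strand, the second at chr10:117710759-117711008 on the minus strand and the third at chr1:72307171-72307420 on the plus strand.
Rad9b: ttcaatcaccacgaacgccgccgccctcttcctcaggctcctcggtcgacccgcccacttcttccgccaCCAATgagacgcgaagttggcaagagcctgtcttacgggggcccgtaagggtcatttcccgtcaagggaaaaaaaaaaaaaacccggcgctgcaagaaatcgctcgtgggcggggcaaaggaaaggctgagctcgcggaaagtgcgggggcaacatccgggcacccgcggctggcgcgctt
Mdm2: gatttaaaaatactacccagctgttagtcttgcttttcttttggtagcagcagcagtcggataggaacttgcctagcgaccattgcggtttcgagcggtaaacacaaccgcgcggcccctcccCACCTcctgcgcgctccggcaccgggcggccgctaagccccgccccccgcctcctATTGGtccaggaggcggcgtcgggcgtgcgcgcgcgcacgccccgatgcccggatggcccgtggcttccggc
Xrcc5: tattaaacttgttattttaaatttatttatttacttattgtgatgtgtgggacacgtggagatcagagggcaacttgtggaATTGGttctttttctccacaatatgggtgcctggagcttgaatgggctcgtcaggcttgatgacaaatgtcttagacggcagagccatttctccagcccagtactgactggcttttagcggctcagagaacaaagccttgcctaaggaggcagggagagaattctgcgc

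Of the 52 genes, 42 had a promoter in the RefSeq table. The full Zeb-type E-box was in 2 of these 42 (4.76%), Rad54l and Cdkn2aipnl, against 19.1% of 17492 protein-coding genes in the table, and the core CACCT in 15 (35.7%) against 48.8%. The E2F-type letters were in 5 of 42 (11.9%), namely Fancm, Msh3, Rad51c, Sesn1 and Trp53bp2, against 4.73%. Log2 differences of these 5 genes ran from -0.17 for Rad51c to 0.34 for Fancm. A CCAAT box was in 22 (52.4%) against 39.5%, among them all 3 genes printed above. A p53 response element, searched as the consensus with a spacer of up to 13 bases, was in none of the 42 upstream windows and in 0.0572% of those of protein-coding genes. Such matches describe letters in a window, and nothing was measured here about binding.

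Genes of the damage kinases and the checkpoint clamp had all 8 members at differences above 0 and a median of 0.38, though 7 of the 8 did not reach an unadjusted p under 0.05. Rad9b, a paralogue of the checkpoint clamp subunit gene Rad9a, stood at 7.32, 7.49 and 6.54 in Zeb2KO replicates 1 to 3 and at 5.63, 6.50 and 5.89 in WT. The lowest Zeb2KO array lay just above the highest WT array. Means were 7.12 ± 0.50 and 6.00 ± 0.45 (SD, n = 3), which differed by 1.11 (SE 0.35), or 2.16-fold, with an adjusted p of 0.62 in limma. It was 0.92 without WT replicate 1, 1.40 without Zeb2KO replicate 3 and 0.68 with array weights. It did not reach an unadjusted p under 0.05 when the interquartile range of each array entered the fit as a covariate (array spread in the fit, from here on), at 0.81, or without the 2 arrays of raised Y-linked signal, at 0.82. Rad9a, its paralogue, differed by 0.25 and Rad1, the partner of both in the clamp, by 0.27.

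Atr, the kinase of stalled forks, was at 6.35, 7.66 and 6.86 in Zeb2KO and 6.01, 6.98 and 6.07 in WT, a difference of 0.61 (SE 0.40, limma adjusted p = 0.673). In both groups replicate 2 was the highest array, the groups overlapped, and the difference was 0.26 without Zeb2KO replicate 2. Atm, the kinase of DNA breaks, was at 6.74, 7.73 and 7.15 against 6.75, 7.05 and 6.39, a difference of 0.48 (SE 0.34). It was 0.22 without Zeb2KO replicate 2 and 0.034 with array spread in the fit. Its effector kinase gene Chek2 was at 7.28, 7.64 and 7.55 against 6.36, 7.14 and 7.48, a difference of 0.50 (SE 0.34) that was 0.18 without WT replicate 1. Chek1, the kinase downstream of ATR, was at 6.83, 8.37 and 7.85 against 7.16, 7.59 and 8.16, a difference of 0.044 with an interval from -0.88 to 0.97. Its sign depended on the setting, at -0.16 with quantile normalization, -0.053 with array weights, -0.59 with array spread in the fit, and -0.30 without Zeb2KO replicate 2. Trp53bp1, a scaffold at breaks that favours end joining, was less variable, at 7.43 to 8.06 over the 6 arrays with a difference of 0.13. With array spread in the fit the Atr difference was -0.13 and the median of the role 0.11.

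Of p53's own regulators, Mdm2, the ubiquitin ligase that degrades p53 and is itself a p53 target, was at 8.82, 8.36 and 8.60 in Zeb2KO and 7.96, 8.32 and 8.31 in WT. The groups did not overlap, by a narrow margin between Zeb2KO replicate 2 and WT replicate 2. The difference of 0.39 (SE 0.28) or 1.31-fold did not pass (limma adjusted p = 0.673). It was 0.17 with quantile normalization and 0.16 without the 2 arrays of raised Y-linked signal. Trp53inp1, a p53-induced stress gene, differed by -0.11, and Trp53rkb, a gene of the Trp53-regulating kinase family whose probes may also read its paralogue, by -0.12.

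The genes grouped by name as p53 targets, cyclin G and sestrins did not move one way, with 3 of 6 at differences above 0 and a median near 0. The p53-induced genes Mdm2 and Trp53inp1 were counted with the regulators above and not here. Ccng1, the cyclin G1 gene and an established p53 target, varied most of all 52 genes. It was at 6.14, 9.45 and 9.34 in Zeb2KO and 6.93, 8.61 and 7.68 in WT, a range of 3.31 on the log2 scale over the arrays. The low Zeb2KO array is replicate 1, and the group difference of 0.57 (SE 0.77, limma adjusted p = 0.726) was 1.65 without it and -0.0043 without Zeb2KO replicate 2. Sesn1, a sestrin that restrains growth signalling under stress, spanned 2.35 with its lowest value in WT replicate 1 (6.06) and differed by 0.29. The sestrin gene Sesn3 was at 6.57, 6.91 and 7.28 in Zeb2KO and 7.03, 7.11 and 7.49 in WT, a difference of -0.29 (SE 0.30). Zmat3, a p53-induced RNA-binding protein gene, differed by -0.35, with values of 5.49, 5.15 and 4.95 in Zeb2KO against 5.55, 5.09 and 6.00. Ccng2 differed by 0.11 and Trp53i11 by -0.11.

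Inhibitors of cyclin-dependent kinases were represented by 4 genes, none past the test. Cdkn2c, which encodes p18 (INK4C), was at 6.76, 6.49 and 5.88 in Zeb2KO and 6.13, 5.81 and 5.43 in WT, a difference of 0.59 (SE 0.33, limma adjusted p = 0.673). Replicate 1 was the highest and replicate 3 the lowest in both groups. Cdkn1b, which encodes p27 (KIP1), a brake of quiescent stem cells, was at 8.56, 10.03 and 9.15 against 9.21, 8.77 and 8.40, a difference of 0.45 (SE 0.40) that was 0.056 without Zeb2KO replicate 2. Its other probe set differed by 0.29. Cdkn1c, which encodes p57 (KIP2) and is known for its role in stem cell quiescence, was at 6.58, 5.96 and 6.65 against 6.66, 6.18 and 6.66. It differed by -0.11 with an interval from -0.79 to 0.58, and was 0.11 without Zeb2KO replicate 2. Cdkn2d differed by 0.032.

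**Figure D2:**
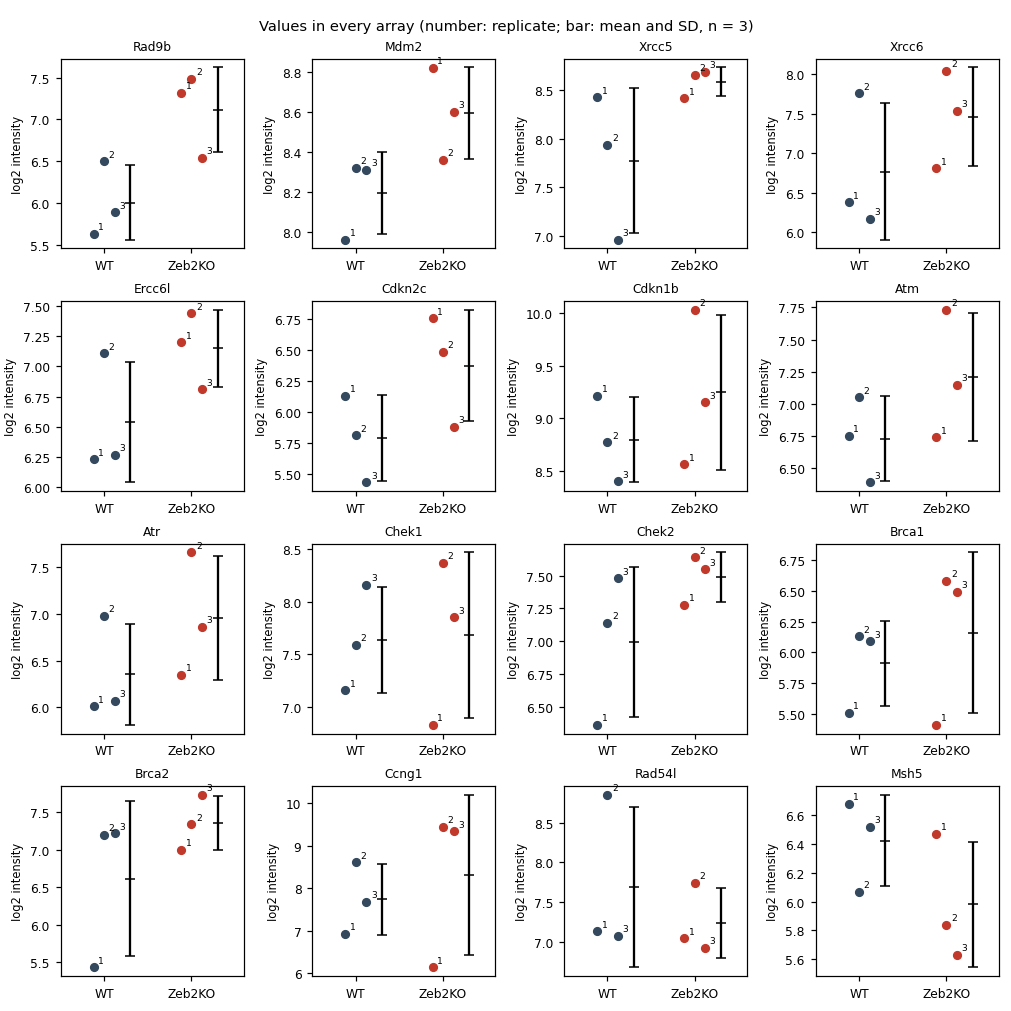
Log2 intensity (vertical axis, its range set for each gene) in every WT and Zeb2KO array for 16 of the genes, with the replicate number beside each point and the group mean and SD (n = 3) as a bar. Zeb2KO and WT values are apart for Rad9b and Mdm2 and overlap for the other 14, and Ccng1 has its lowest value, 6.14, in Zeb2KO replicate 1.

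In homologous recombination, where Rad54l2 was counted by its name alone, 7 of 11 genes were above 0, with a median of 0.075, and no gene passed. Brca2, a mediator of strand exchange at resected ends, was at 7.00, 7.34 and 7.73 in Zeb2KO and 5.43, 7.20 and 7.22 in WT. The difference of 0.73 (SE 0.46, limma adjusted p = 0.673) rested on WT replicate 1, without which it was 0.14. Brca1, which promotes end resection, was at 5.41, 6.58 and 6.49 against 5.51, 6.13 and 6.09, a difference of 0.25 (SE 0.37). It was 0.04 without Zeb2KO replicate 2, 0.62 without Zeb2KO replicate 1 and -0.32 with array spread in the fit. Rad50, part of the break-sensing MRN complex, differed by 0.37, Rad52 by 0.34 and Rad51d by 0.19. On the lower side, Rad54l, a motor protein of strand invasion, was at 7.04, 7.74 and 6.92 against 7.13, 8.85 and 7.07. Its difference of -0.45 (SE 0.47) came with a single high array, WT replicate 2, and was 0.13 without it. Rad54l2, a Rad54-like remodeller with no established part in this pathway, was at 3.78, 4.50 and 3.51 against 4.10, 4.54 and 4.09, and differed by -0.31 (SE 0.33). Rad51c was at 5.36, 4.99 and 5.67 against 5.79, 5.45 and 5.28, a difference of -0.17 (SE 0.30). Xrcc3 (-0.12) was the other lower gene, and Rad51ap1 (0.075) and Rad54b (0.026) lay near 0.

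End joining was covered by 3 genes, all above 0, with a median of 0.70. Xrcc5 and Xrcc6 encode Ku80 and Ku70, the subunits of the ring that binds broken ends. Xrcc5 was at 8.42, 8.66 and 8.69 in Zeb2KO and 8.43, 7.94 and 6.96 in WT. The Zeb2KO arrays lay close together, and the spread was in WT. The means were 8.59 ± 0.15 and 7.77 ± 0.75 (SD, n = 3), which differed by 0.82 (SE 0.37), or 1.76-fold, with an interval from -0.0096 to 1.64 (limma adjusted p = 0.673). It was 0.41 without WT replicate 3 and 1.14 without WT replicate 1. With array weights it was 1.29 and passed (limma adjusted p = 0.0318), as 6.69% of all probe sets did in that fit, the 1 such case among the 52 genes under all settings run. Xrcc6 was at 6.81, 8.05 and 7.54 against 6.38, 7.76 and 6.17, a difference of 0.70 (SE 0.46), and -0.14 with array spread in the fit. Xrcc4, the partner of the ligase, differed by 0.42.

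Genes of the Fanconi anaemia pathway lay near 0, with a median of 0.049 over 5 genes. Fancl, the ubiquitin ligase subunit of the core complex, differed by 0.41 (SE 0.34) and Fancm, its DNA-anchoring translocase, by 0.34, while Fanci, the target of the ligase, differed by 0.04 and Fancb by 0.049. Fance, a further core subunit, was at 7.09, 6.63 and 6.56 against 7.19, 6.75 and 7.02, a difference of -0.23 (SE 0.29). The nucleotide excision repair genes Rad23b, a damage recognition cofactor, and Ercc6, of transcription-coupled repair, differed by 0.27 and -0.095. Rad23b was at 7.22 in WT replicate 1 and 9.55 in WT replicate 2, a wider spread within WT than between the group means. In mismatch repair Msh6, which recognises single mispairs, differed by 0.26 and Msh3 by 0.01. Msh5, known for its role in meiotic recombination, was at 6.47, 5.84 and 5.63 against 6.68, 6.07 and 6.52, a difference of -0.44 (SE 0.32, limma adjusted p = 0.673).

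The other 7 genes matched by name and were placed outside the roles above, and 6 of them were above 0. That placing does not exclude a part in repair or p53 signalling. Ercc6l, a helicase of mitotic chromosome bridges, was at 7.20, 7.44 and 6.81 in Zeb2KO and 6.23, 7.11 and 6.27 in WT, a difference of 0.61 (SE 0.33, limma adjusted p = 0.673). Rad21, the cohesin subunit, was at 9.87, 10.01 and 9.92 against 8.08, 9.99 and 9.62. Its difference of 0.71 (SE 0.44) was 0.13 without WT replicate 1, the single low array. Rad18, a ubiquitin ligase of damage tolerance, differed by 0.28, Cdkn2aipnl by 0.28, Ercc6l2 by 0.095 (0.39 in its other probe set), and Trp53bp2 by 0.087. Trp53inp2, known for autophagy, was at 7.24, 6.45 and 6.82 against 7.41, 7.06 and 6.91, a difference of -0.29 (SE 0.31). Without these 7 genes, 32 of 45 were above 0 and the median was 0.19.

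Much of the variation among these genes followed single arrays. The highest of the 6 arrays was Zeb2KO replicate 2 in 24 of the 52 genes (46.2%), against 24.9% of all genes, and the lowest was WT replicate 1 in 17 (32.7%), against 22.2%. The median deviation from the gene's own mean was 0.41 in Zeb2KO replicate 2, 0.16 in Zeb2KO replicate 3 and -0.15 in Zeb2KO replicate 1, and 0.075 in WT replicate 2, -0.04 in WT replicate 3 and -0.24 in WT replicate 1. Zeb2KO replicate 1 thus lay below 2 of the 3 WT arrays. The array with the widest interquartile range had the highest median and that with the narrowest the lowest. With that range as a covariate, 20 of the 52 genes were above 0 and the median was -0.091, against -0.0067 over all probe sets. The range was itself wider in Zeb2KO at each replicate number, so that fit cannot fully tell group and spread apart. Without Zeb2KO replicate 2 the median was 0.021 with 29 genes above 0, without WT replicate 1 it was 0.056 with 30, and without Zeb2KO replicate 3 it was 0.12.

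**Figure D3:**
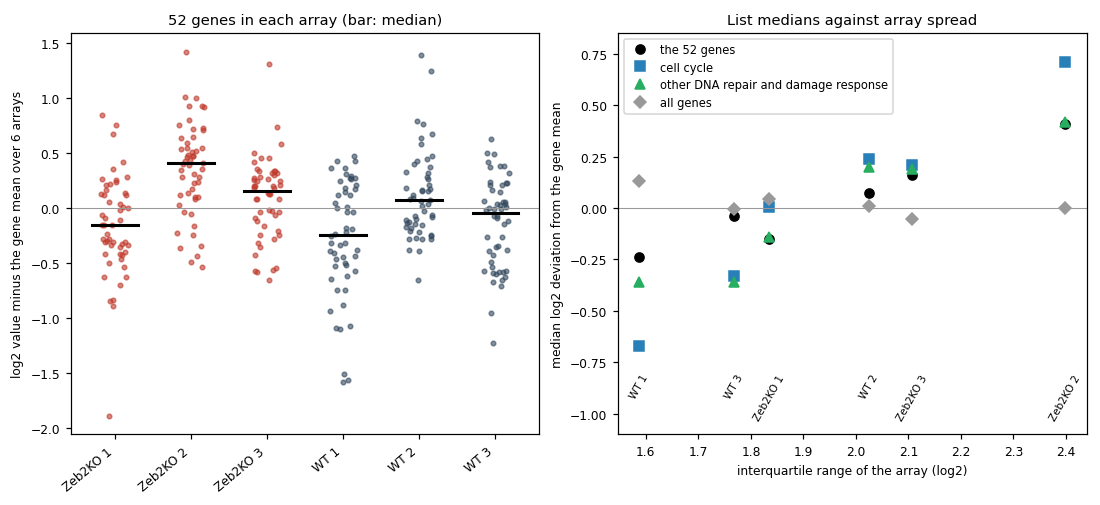
Left, log2 value minus the gene's mean over the 6 arrays for the 52 genes in each array, with the median as a bar (red Zeb2KO, blue WT). Right, the median deviation of 4 gene lists (vertical axis) against the interquartile range of each array (horizontal axis, log2), where the 52 genes run from -0.24 in WT replicate 1 to 0.41 in Zeb2KO replicate 2.

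The level of a gene also went with its difference. Split at the median level of all genes (log2 6.65), the 33 brighter genes of the 52 had a median difference of 0.28 with 25 (75.8%) above 0, and all genes in that range had 0.21 with 66.3% above 0. The 19 dimmer ones had a median of 0.049 with 13 (68.4%) above 0, against -0.24 and 25.2% for all dimmer genes. The 2 medians were thus closer together among brighter genes than over all genes, whereas among dimmer genes they were about as far apart as over all genes and the shares above 0 were further apart. No test of these gaps was made.

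**Figure D4:**
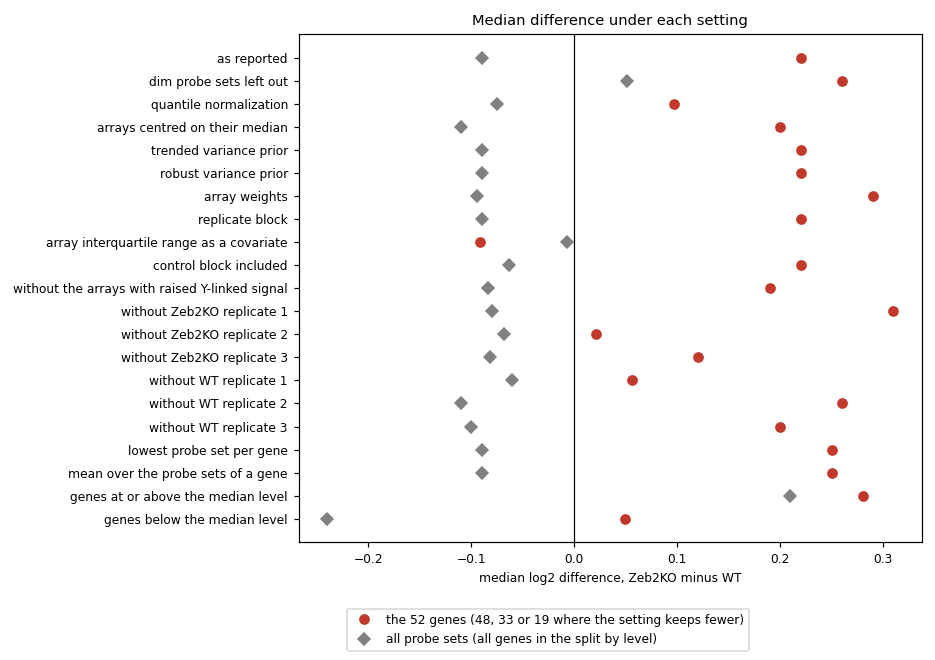
Median log2 difference between Zeb2KO and WT (horizontal axis) of the repair, p53 and checkpoint genes (red circles) and of all probe sets (grey diamonds) as reported, under each other setting and, in the lowest 2 lines, in genes of higher and lower level. The red median is above 0 in all settings but that with array spread in the fit, where it is -0.091, and is 0.021 without Zeb2KO replicate 2.

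Further genes of the same pathways came from a list that shares no gene with the 52. Of its 44 measured genes of repair and damage response, 36 (81.8%) were above 0, against 44.6% of all probe sets, with a median of 0.32. An unadjusted p under 0.05 was reached by 5 (11.4%), all higher, against 5.69% of all probe sets on that side, and none passed the adjusted threshold. The groups did not overlap in 5 (11.4%), all higher, against 6.9%. Unlike those of the 52 genes, the shares by p and by overlap were above those of all probe sets, and the difference between the lists was not tested. The median level of these 44 genes was log2 7.29. Of all genes at or above the median level of all genes, 66.3% were above 0. On the higher side 496 of these 5183 reached that p, and the groups did not overlap in 11.2%. The list was chosen with earlier results of these data known. Polk, a polymerase that copies past lesions, was at 6.71, 7.29 and 7.22 in Zeb2KO and 6.13, 5.96 and 6.20 in WT, a difference of 0.98 (SE 0.29, limma adjusted p = 0.606). Clspn, the adaptor through which ATR activates CHK1, differed by 0.67, and Polb, the polymerase of base excision repair, by 0.99. Topbp1, an activator of ATR, was at 8.80, 8.83 and 8.91 against 7.82, 8.53 and 8.26, and Rnf168, which marks chromatin at breaks, differed by 0.69. With array spread in the fit 23 of the 44 were above 0, with a median of 0.0094. Of 20 further p53 targets, 10 were above 0 with a median of 0.10. Gadd45a, a stress gene induced by p53, was at 7.59, 7.88 and 8.19 against 6.98, 7.11 and 6.99, a difference of 0.86 (SE 0.28, limma adjusted p = 0.623), and Plk2 differed by -0.93 and Ei24 by 0.78. For comparison, all 34 measured cell cycle genes were above 0, with a median of 0.52, and with array spread in the fit 20 of 34 were, with a median of 0.032. Cell cycle genes had their highest value in Zeb2KO replicate 2 in 29 of 34 cases and their lowest in WT replicate 1 in 24, the same arrays as above, and their part in the repair gene values was not tested.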

How the data were processed

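Total RNA of the sorted cells was amplified and hybridised to arrays, 1 for each marrow sample, as the labels' protocols state. The authors deposited intensity values, summarised per probe set with RMA per the submitters' processing notes. No version or later scaling step is named there. Their range shows a linear scale, and log2 was taken before every test. Precision is limited by 3 arrays a group. The labels call them biological replicates. The p-values rest on the spread between these samples, with the variance of each probe set drawn by limma towards that of all probe sets tested.

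Of 20220 probe sets, 5610 below the first annotated identifier carry no gene and were left out as a control block. Of 14610 tested, 11229 carry 1 symbol, 766 several and 2615 none in the platform annotation. RefSeq (GRCm38.p6) held 11184 of the single symbols by gene identifier. The 52 genes came from 54 probe sets, and 2 genes had a second one.

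limma 3.58.1 (R 4.3.3; lmFit and eBayes, no covariate, 6.87 prior and 4 residual degrees of freedom) was run over all tested probe sets, with Benjamini-Hochberg adjustment and a threshold of 0.05. Differences are Zeb2KO minus WT on the log2 scale. No filter on low values was used. Lists are described by counts and medians, with no test. The members and lists were chosen with earlier results of these data known. Values in full were given for the 10 higher and 8 lower members with the smallest p and for 13 of 20 fixed members that were measured, 24 genes in all, and for a few others by role. The fit was tested on simulated data.

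The labels do not state that same-numbered replicates are pairs, so the numbers were not taken as pairs. Same-numbered replicates deviated together with correlations of 0.36, 0.414 and 0.0468, and every array correlated best with its own number in the other group. A block for the replicate number put 17.8% of all probe sets at an unadjusted limma p under 0.05, against 7.02% without it. None passed after adjustment with the block. Alternatives were leaving out dim probe sets or single arrays, quantile normalization, centring, other variance priors, weights per array, a block for the replicate number, each array's interquartile range as a covariate, other probe sets per gene, and the control block. The split by level and the list without the 7 genes placed outside the roles were chosen after seeing the data.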

Additional observations from a re-analysis of the deposited data

How the results depend on the processing

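No member passed the adjusted threshold in any setting but array weights, where 1 did (1.92%, against 6.69% of all probe sets), and Zeb2 passed there too (1.67, limma adjusted p = 0.0181). With array weights 13 members had an unadjusted p under 0.05, 10 of them higher (19.2%, against 17.2% of all probe sets) and 3 lower (5.77% against 15.6%). With a robust prior 2 did, both higher (3.85% against 5.21%). Without the arrays of raised Y-linked signal 3 did, all higher (5.77% against 6.44%). With array spread in the fit 2 did, both lower (3.85% against 2.63%), and none higher, against 2.51%. Leaving out single arrays gave 1 to 6 such members, all higher. With the replicate number as a block the count was 4, all higher (Rad9b, Cdkn2c, Atr and Ercc6l). This was 7.69%, against 9.69% of all probe sets on that side, and no member passed after adjustment. Every array correlated best with its own number in the other group, a hint from the data and not from the design. Groups did not overlap in 23 members (44.2%, against 50% of all probe sets) without the 2 arrays of raised Y-linked signal. Of these, 18 were higher (34.6% against 19.6%) and 5 lower (9.62% against 30.4%). With 1 array left out this held for 4 to 17 members. The 4, without WT replicate 3, were all higher (7.69% against 10.4%). The 17, without Zeb2KO replicate 1, were 14 higher (26.9% against 16.7%) and 3 lower (5.77% against 28.4%). With any other single array left out, the higher-side share was below that of all probe sets. Members above 0 numbered 20 with array spread in the fit, and 29 to 40 with 1 array left out. The median over all members ran from 0.021 to 0.31 with 1 array left out and was -0.091 with array spread in the fit. By role with that covariate the median was -0.095 (Fanconi anaemia), 0.11 (kinases and checkpoint), -0.051 (genes placed outside the roles) and -0.39 (p53 targets, cyclin G and sestrins). The median of p53 targets, cyclin G and sestrins, near 0 as reported, was -0.034 with quantile normalization and -0.015 with centred arrays. It was -0.099 with array weights and -0.11 without the arrays of raised Y-linked signal. The Fanconi median was -0.0022 with array weights. With 1 array left out the medians ran from -0.031 to 0.31 (Fanconi anaemia) and -0.036 to 0.29 (homologous recombination). They ran from -0.039 to 0.59 (genes placed outside the roles) and -0.23 to 0.13 (p53 targets, cyclin G and sestrins).

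Of 24 named genes, 9 changed sign with array spread in the fit, namely Atr (-0.13), Brca1 (-0.32), Ccng1 (-1.05), Cdkn1c (0.25), Chek1 (-0.59), Fance (0.057), Rad51c (0.054), Trp53inp2 (0.074) and Xrcc6 (-0.14). With array weights Cdkn1c was 0.03, Chek1 -0.053 and Rad51c 0.21, and with quantile normalization Chek1 was -0.16. With 1 array left out Ccng1 ran from -0.0043 to 1.65, Cdkn1c from -0.27 to 0.11, Chek1 from -0.30 to 0.47, Rad51c from -0.33 to 0.0097 and Rad54l from -0.76 to 0.13. The cause of these changes was not tested, and array spread was itself wider in Zeb2KO at each replicate number. Rad9b kept its sign in all settings, but missed an unadjusted p of 0.05 with array spread in the fit and without the arrays of raised Y-linked signal. Leaving out 1 array moved the difference by over 1.5 times, or turned it, in 20 of the 24, the exceptions being Cdkn2c, Ercc6l, Mdm2 and Rad9b.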
